A study of Bos taurus with 10 samples.

Results

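The brain was compared with the other adult organs of cattle by RNA level, in 7 of the 10 arrays of the study. The 7 arrays are 1 of bovine brain and 1 each of heart, kidney, liver, spleen, lung and muscle, and each was assigned to its tissue by its title. The study set in vitro fertilized bovine embryos beside these tissues, and all RNA was total RNA read on an array made for human transcripts (cross-species hybridization). The 3 embryo arrays took part in the normalization and in the measure of spread between arrays of the same kind, and in no comparison with brain. The labels give no brain region, breed, sex, treatment or number of animals, and only that of brain calls its tissue adult, as the title of the study does for all the tissues, so a difference between tissues here is a difference between 7 single RNA samples. With 1 array per tissue there is no replicate check of any difference, no test was run and no p-value is given.

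On such an array each human transcript is read by 1 or more probe sets, groups of short probes complementary to its sequence, and bovine RNA binds them as far as its sequence matches. Genes are therefore named by human symbols, and the level of a probe set is compared between tissues only, never with that of another probe set. Levels are given as normalised intensities in arbitrary units. Differences are given on the scale of log2(intensity + 70.85), where 1 is a 2-fold difference, and this offset makes the differences of dim probe sets smaller than their plain ratios. A gene with several probe sets is represented, in counts of genes, by the probe set with the highest mean over the 7 adult arrays.

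Neurons carry signals along axons and pass them on at synapses, where vesicles filled with transmitter fuse with the membrane through SNARE proteins and the transmitter opens receptors on the next cell. This work rests on a cytoskeleton of neurofilaments and stabilised microtubules, on ion channels and pumps that set the membrane potential, and on calcium-driven kinases and phosphatases. Glia surround the neurons, with astrocytes taking up transmitter and moving water, oligodendrocytes wrapping axons in myelin and microglia acting as resident macrophages.

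After 33 control probe sets were left out, 10186 with values were analysed. Of these, 9469 lay above the median of their array on at least 1 of the 7 adult arrays, and they cover 6359 genes with 1 symbol. The median deposited intensity was 183.3 on the brain array and between 99.2 and 153.25 on the other adult arrays. For GAPDH, the 5' control probe set measured 0.287 times the 3' one on the brain array (a sign of RNA length), below the 0.328 to 0.471 of the other adult tissues. The same quotient for ACTB was 0.756 on the brain array, inside the range of 0.311 to 2.65 of the others. The part of these control values in the results below was not tested. Across the 9469 probe sets, which share array design and probe sequences, the Spearman rank correlation of the brain array with the others was 0.60 for kidney, 0.49 for spleen, 0.45 for heart and lung, 0.39 for muscle and 0.19 for liver.

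The label of the brain array was checked against 5 neuronal markers, and each of them had at least 1 probe set far brighter in brain than in any other organ. SNAP25, a SNARE protein of the presynaptic membrane, measured 1196 in brain, 3.0 in heart, 1.13 in kidney, 0.44 in liver, 0.215 in lung, 1.9 in muscle and 8.05 in spleen. Its second probe set measured 257 in brain, 23.2 in heart, 10.2 in kidney, 17.1 in liver, 22.6 in lung, 17 in muscle and 13.4 in spleen. No other tissue came near brain on either probe set, and the differences to the highest other tissue were 4.005 and 1.80. SYT1, the calcium sensor of vesicle fusion, measured 996 in brain, 40.3 in heart, 36.2 in kidney, 12.9 in liver, 18.6 in lung, 35.2 in muscle and 40.4 in spleen, a difference of 3.26. NEFL, the light neurofilament chain, measured 607 in brain, 6.37 in heart, 1.21 in kidney, 1.46 in liver, 5.92 in lung, 8.6 in muscle and 1.07 in spleen on 1 probe set and 277 in brain, 52.6 in heart, 40.2 in kidney, 29.2 in liver, 66 in lung, 31.1 in muscle and 41.9 in spleen on the other. Brain stood above all 6 organs on both. GPM6A, a membrane glycoprotein of neurons, measured 1062 in brain, 33.8 in heart, 55.3 in kidney, 22.4 in liver, 61.6 in lung, 15.6 in muscle and 39.9 in spleen on its brighter probe set. On the other it was 882 in brain and between 7.64 in muscle and 103 in lung in the rest. Lung was the next tissue on both probe sets of GPM6A.

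GAP43, a protein of growing axon ends, was the exception among the markers in that its 3 probe sets disagreed. The probe set that set brain apart measured 783 in brain, 0.965 in heart, 0.18 in kidney, 0.87 in liver, 6.49 in lung, 0.485 in muscle and 3.78 in spleen, a difference of 3.46. On another probe set muscle was highest, with 56.4 in brain, 132 in heart, 58.6 in kidney, 121 in liver, 83.2 in lung, 261 in muscle and 104 in spleen. On its last probe set liver was highest at 186, against 75.6 in brain. A gene can therefore have 1 probe set that separates brain from the other tissues beside others that do not.

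**Figure D1:**
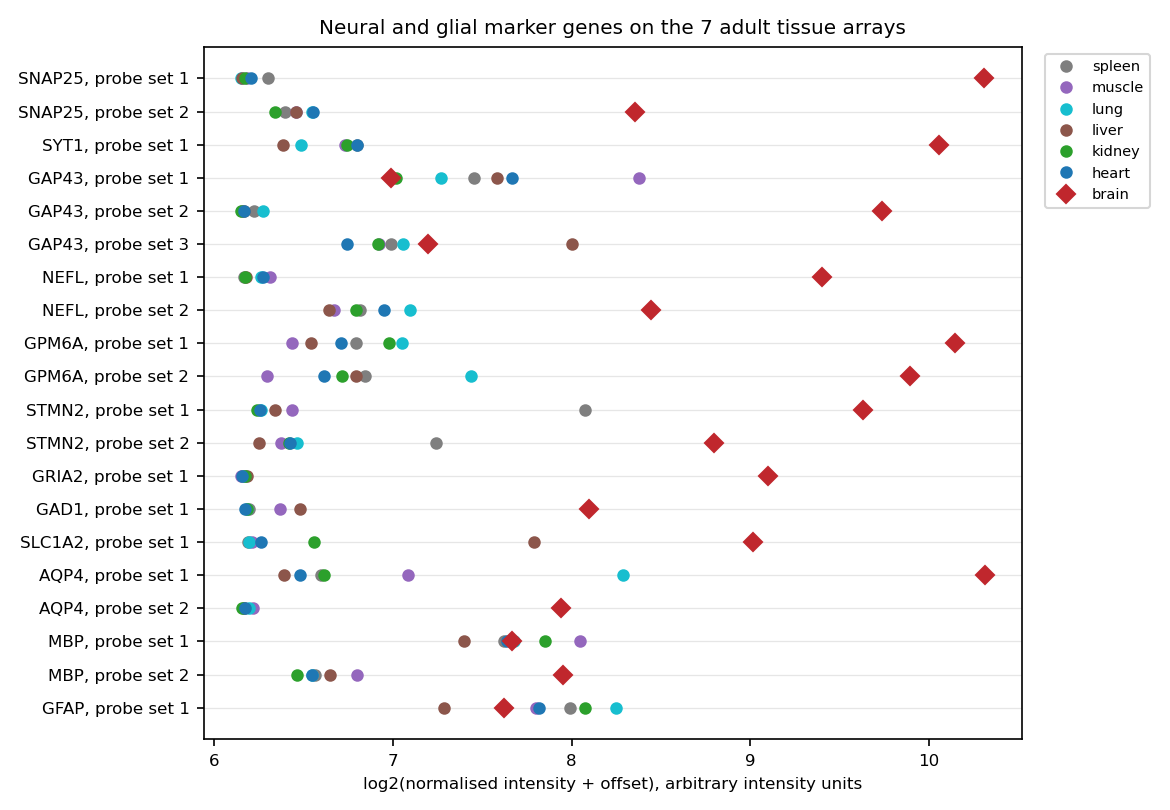
Normalised intensities of 12 neuronal and glial marker genes on the 7 adult arrays, on the log2(intensity + offset) scale; each line is 1 probe set, the diamond is brain and each circle another tissue (1 array each). Brain lies to the right of all circles for SNAP25, SYT1, NEFL, GPM6A, STMN2, GRIA2, GAD1, SLC1A2 and AQP4, and among or left of them for 2 of the 3 GAP43 probe sets, 1 of the 2 MBP probe sets and GFAP.

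Over all probe sets, 420 of 9469 (4.44%) were at least 2-fold higher in brain than in every other tissue, and 144 (1.52%) were at least 4-fold higher. Only liver had more, with 586 (6.19%) and 278 (2.94%). The next tissue was muscle with 344 (3.63%) and 71 (0.75%), then heart with 204 (2.15%) and 35 (0.37%) and lung with 156 (1.65%) and 45 (0.475%). Spleen had 85 (0.898%) and 16 (0.169%), and kidney 77 (0.813%) and 19 (0.201%). In the other direction, 26 probe sets (0.275%) were at least 2-fold lower in brain than in every other tissue, against 70 (0.739%) in liver, 25 (0.264%) in muscle, 14 (0.148%) in heart, 5 each (0.0528%) in lung and spleen, and 2 (0.0211%) in kidney. Measured against the median of the other 6 tissues, 921 probe sets (9.73%) were at least 2-fold higher in brain and 326 (3.44%) at least 2-fold lower, and with the values as deposited these numbers were 1378 and 160. Under both scalings more probe sets were at least 2-fold higher in brain than at least 2-fold lower. Without a limit of size, 1508 (15.9%) were highest in brain and 1621 (17.1%) lowest in brain.

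Arrays of the same label give a measure of how many probe sets can stand apart by 2-fold without a difference in tissue. Of the 3 embryo arrays, 1 stood 2-fold above both others on 0.137% of the probe sets, the second on 0.0317% and the third on 2.62%. The third embryo array thus stood apart from the other 2. These arrays had only 2 others to exceed and the labels do not say whether they hold separate pools, so the shares are not matched to that of brain.

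Among the 420 probe sets, the level in brain ran from 148.5 to 8428 with a median of 427.8. The second highest tissue was kidney for 84, spleen for 74, heart for 70, liver for 69, muscle for 62 and lung for 61, so no organ supplied most of the second places. Brain and 1 other tissue together stood 2-fold above the remaining 5 for 15 probe sets (0.158%) with heart, 12 (0.127%) with kidney, 10 (0.106%) with lung, 8 (0.0845%) with muscle and 6 each (0.0634%) with liver and spleen. The genes just inside the 2-fold limit were CCL18 with a difference of 1.004, ATP2B2 (on its dimmer probe set) with 1.006 and AP3S1 with 1.010. GNAQ at 0.994 and ENOPH1 and FANCI, both at 0.995, lay just outside it.

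**Figure D2:**
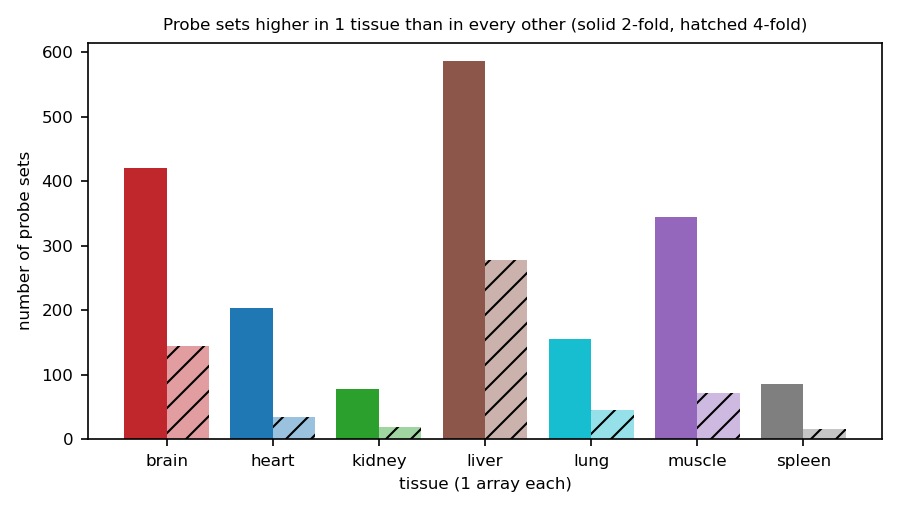
Number of probe sets, out of 9469, that were higher in the tissue named on the horizontal axis than in every other adult tissue, by at least 2-fold (solid bars) and at least 4-fold (pale hatched bars), with 1 array per tissue. Brain, with 420 and 144, comes second to liver, with 586 and 278.

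Counted by gene, 281 of 6359 (4.42%) were at least 2-fold higher in brain than in every other tissue, 107 (1.68%) were at least 4-fold higher, and 14 (0.22%) were at least 2-fold lower. Against the median of the other tissues, 608 genes (9.56%) were at least 2-fold higher. Of the genes in 12 lists of neural function, which together hold 346 genes past the filter, 114 (32.9%) were at least 2-fold higher and none was 2-fold lower than every other tissue. Their median difference to the median of the other tissues was 0.88, beside -0.03 over all genes. Seen from the other side, genes of these lists made up 40.6% of those 2-fold higher, 50.5% of those 4-fold higher and 5.44% of all genes. The lists were written with earlier results of these data known, so these shares are not independent of the data. In bulk RNA a higher level cannot be told apart as more cells of a type or more RNA per cell. The lists are described below in the order of the machinery they stand for, each with its count of genes at least 2-fold above every other tissue.

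**Figure D3:**
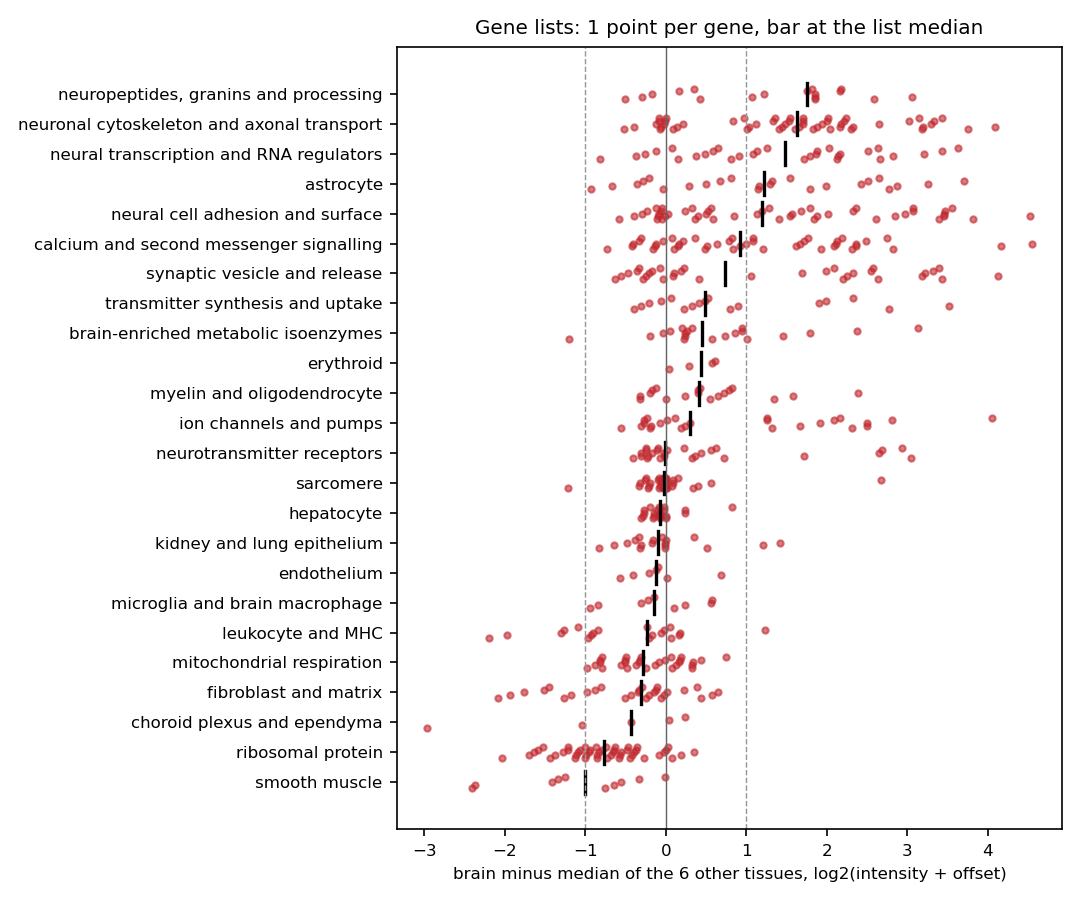
Difference between brain and the median of the 6 other tissues, on the log2(intensity + offset) scale, for the genes of 24 lists; each point is 1 gene (its probe set with the highest mean), the black bar is the list's median and the dashed lines mark 2-fold. The medians run from -1.01 for smooth muscle genes to 1.76 for neuropeptides, granins and their processing, and with another offset, filter or set of tissues another list can be at either end.

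Genes of the synaptic vesicle and its release were high in brain for 14 of 32, 9 of them by 4-fold, with a median difference of 0.73 to the median of the other tissues, which became 1.41 without kidney and 2.20 with a filter at the 75th percentile. Summed over the list, the intensity was 13967 in brain and between 2954 in lung and 4334 in heart elsewhere. NSF, the ATPase that takes SNARE complexes apart after fusion, measured 1891 in brain, 17.1 in heart, 177 in kidney, 149 in liver, 90.2 in lung, 59 in muscle and 146 in spleen. SYP, the vesicle membrane protein synaptophysin, measured 950.1 in brain, 28.7 in heart, 21.8 in kidney, 1.46 in liver, 23.2 in lung, 24.3 in muscle and 74.1 in spleen. SYNGR3, a synaptogyrin of the same membrane, was 914 in brain and between 23 in lung and 44.8 in liver elsewhere. ERC2, an active zone scaffold that was outside the list and among the 20 genes furthest above every other tissue, was 915 in brain and at most 10.4 in heart. VAMP2, a SNARE protein of the vesicle membrane, was not set apart, at 293 in brain and between 196 in lung and 325 in spleen elsewhere, while its relative VAMP1 was 606 in brain and at most 65.3 in kidney.

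The neuronal cytoskeleton and axonal transport list had 23 of 52 genes high in brain, with 34 highest in brain by any margin (15.6% of all genes were) and a median difference of 1.63. Its summed intensity was 27339 in brain and at most 9267 in lung. STMN2, a microtubule regulator of growing axons, measured 722 in brain, 5.56 in heart, 4.61 in kidney, 10.1 in liver, 6.02 in lung, 15.8 in muscle and 199 in spleen. Its second probe set gave the same order at the top, with 373 in brain and 80.6 in spleen. Spleen was the only other tissue above 20 on either probe set of STMN2. Motor and cargo proteins of axonal transport followed, with KIF5C, a neuronal kinesin heavy chain, at 910.5 in brain and at most 3.42 in liver. KLC1, a kinesin light chain, measured 1167 in brain, 74.5 in heart, 2.02 in kidney, 0.18 in liver, 1.37 in lung, 85.9 in muscle and 1.93 in spleen. On its second probe set KLC1 was 173 in brain and 55.9 in lung, a difference of 0.94, under the 2-fold limit. DCLK1, a doublecortin-like kinase that binds microtubules, was 758 and 522 in brain on its 2 probe sets, and at most 60.3 in kidney and 22.7 in kidney. ADD2, the beta subunit of adducin that caps actin filaments, was 790.2 against at most 18.1 in spleen. NEFM and NEFH, the larger neurofilament chains, were 629 and 348 in brain with differences of 2.93 and 2.22 to the next tissue. MAPT, the axonal microtubule protein tau, was 969 in brain and between 30.0 in liver and 379 in kidney on 1 probe set. On its other probe set liver was highest at 251 and brain measured 11.1. KIF5B, a kinesin heavy chain that other organs also use, was 199 in brain and 490.3 in heart.

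Neurotransmitter receptors had 4 of 26 genes high in brain (4.42% of all genes were). Their median difference was -0.0047, which became 0.15 without heart and 0.41 with the values as deposited. GRIA2, an AMPA-type glutamate receptor subunit, measured 479 in brain, 0.375 in heart, 1.33 in kidney, 1.74 in liver, 1.37 in lung, 0.28 in muscle and 0.37 in spleen, so no organ other than brain exceeded 1.74. GABBR2, a subunit of the metabotropic GABA receptor, was 603 in brain and at most 34 in spleen. GPRC5B, an orphan G protein-coupled receptor, was 770.2 against at most 139 in kidney, and NTRK2, the receptor of the growth factor BDNF, was 633 against at most 233 in spleen. HOMER1, a postsynaptic scaffold, was highest in brain at 416 and missed the 2-fold limit, with 247 in muscle and 195 in heart. GRIN2A, an NMDA receptor subunit, was not set apart, with 324 in brain inside a range of 189.9 to 612 in the other tissues.

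Transmitter synthesis and uptake had 5 of 17 genes high in brain and a median difference of 0.49, which became 0.29 without lung. GAD1, the enzyme that makes GABA from glutamate, measured 203 in brain, 1.35 in heart, 1.91 in kidney, 18.5 in liver, 1.7 in lung, 11.7 in muscle and 2.4 in spleen. SLC17A7, the vesicular glutamate transporter of excitatory neurons, was 778 in brain and between 51.5 in liver and 128 in lung. SLC12A5, the chloride exporter on which inhibition by GABA depends, was 1070 against at most 56.8 in liver. Both the excitatory and the inhibitory side were thus read on the brain array. The glial glutamate transporters SLC1A3 and SLC1A2 measured 219.7 and 447 in brain. SLC1A3 was at most 4.82 in kidney, whereas SLC1A2 reached 150.3 in liver, the next tissue.

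Of the ion channel and pump genes 10 of 25 were high in brain, with a median difference of 0.30. That median moved when 1 array was left out, to 1.26 without kidney and to 0.86 without liver or without muscle. The gene next above it in the list, ATP2A2, lay at 1.26, and why the median moved was not tested. KCNK1, a potassium channel of the resting membrane, measured 1953 in brain, 17.8 in heart, 327 in kidney, 28.9 in liver, 193 in lung, 13.4 in muscle and 78.1 in spleen, with kidney next. CACNG3, a regulatory subunit of AMPA receptors named for its likeness to calcium channel subunits, was 363 against at most 26.3 in spleen. CACNA2D3 and CACNB2, auxiliary subunits of voltage-gated calcium channels, were 288 and 534 in brain. CACNA2D3 was at most 2.2 in liver, and CACNB2 reached 129 in heart. ATP2B2, a plasma membrane calcium pump, was 671 in brain and 262 in liver. SCN1A, a sodium channel of neurons, was 231 in brain, listed at 0 in heart and at most 0.71 in muscle elsewhere.

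Calcium and second messenger signalling counted 10 of 43 genes, with 23 highest in brain (15.6% of all genes were) and a median difference of 0.92. GNAO1, the G protein alpha subunit that many neuronal receptors use, measured 1578 in brain, 84.9 in heart, 34.7 in kidney, 88.5 in liver, 2.53 in lung, 2.99 in muscle and 9.46 in spleen. Its second probe set was 659.9 in brain and at most 38.5 in heart. VSNL1, a neuronal calcium sensor, was 674 in brain on 1 probe set and 205 on the other, and at most 52 in kidney and 0.87 in liver. DIRAS2, a small GTPase of the Ras family, was 1718 in brain and at most 72.4 in spleen. PLCB1, a phospholipase C, was 876 against at most 146 in kidney. PRKCB, a protein kinase C that B cells also use, was 412 in brain and 169 in spleen, a difference of 1.01. CAMK2A, the calmodulin kinase of excitatory synapses, measured 495 in brain, 145 in heart, 28.4 in kidney, 165 in liver, 56.4 in lung, 217 in muscle and 32.5 in spleen. Its difference of 0.97 to muscle left it just below the 2-fold limit. NRGN, a calmodulin-binding protein of neurons, was not analysed here.

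Neuropeptides, granins and their processing enzymes had a median difference of 1.76, with 7 of 17 genes high in brain. SST, the inhibitory peptide somatostatin, measured 594 in brain, 11.3 in heart, 8.21 in kidney, 13 in liver, 8.06 in lung, 7.0 in muscle and 9.72 in spleen. CHGB and SCG2, granins of dense-core vesicles, were 444 and 259 in brain and at most 27.6 in lung and 12.9 in spleen. CCK, a peptide of cortical interneurons and of the gut, was 189 in brain and at most 8.06 in lung. DKK3, a secreted glycoprotein of the dickkopf family, was 658 in brain but 571 in heart, and scaling the arrays to a common median put heart above brain.

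Neural cell adhesion and surface genes were high in brain for 18 of 47, 11 of them by 4-fold, with a median difference of 1.19. NCAN, a proteoglycan of the brain's extracellular matrix, measured 2580 in brain, 22.7 in heart, 24.8 in kidney, 133 in liver, 47.9 in lung, 41 in muscle and 54 in spleen. GPM6B, a membrane protein related to GPM6A, was 1883 and 1234 in brain on its 2 probe sets, and at most 139.8 in lung and 144 in lung. OPCML, a glycolipid-anchored adhesion molecule, was 1021 against at most 72.1 in kidney. PCDH9, a protocadherin, was 754 and 709.8 in brain and at most 93.5 in spleen and 43.5 in spleen. L1CAM, an adhesion molecule of growing axons, measured 938 in brain, 25.8 in heart, 359 in kidney, 7.61 in liver, 7.95 in lung, 26.2 in muscle and 14.5 in spleen. Kidney was thus the only other tissue in which L1CAM exceeded 26.2. APP, the amyloid precursor protein gene, was about as bright in kidney as in brain, at 2076 and 2125 on 1 probe set, and on the other lung was highest at 581, with 551 in brain.

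Astrocyte genes were high in brain for 10 of 24, with a median difference of 1.23, which became 0.66 without muscle, 0.71 without heart and 0.76 without liver. AQP4, the water channel of astrocyte endfeet, measured 1200 in brain, 18.3 in heart, 27.1 in kidney, 13 in liver, 242 in lung, 64.6 in muscle and 25.9 in spleen. Lung was second for AQP4 on this probe set, and on the other brain measured 175 and no other tissue more than 3.5 in muscle. SPARCL1, a matrix protein of astrocytes and vessels, was 1345 in brain and at most 232 in heart. CSPG5, a proteoglycan of the nervous system, was 1003 against at most 103 in kidney. GFAP, the intermediate filament by which astrocytes are usually recognised, was read by 1 probe set and was not high in brain, with 126 in brain, 155 in heart, 199 in kidney, 85.1 in liver, 233 in lung, 153 in muscle and 183 in spleen. S100B, another such marker, was not analysed here. APOE, the lipid carrier made by astrocytes and hepatocytes, was highest in liver at 1316, with 266 in brain and less than 2.0 in heart, muscle and spleen.

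Myelin and oligodendrocyte genes were high in brain for 2 of 18, with a median difference of 0.42. With a list this short that count cannot be told from the 4.42% of all genes. SOX10, the transcription factor that directs the oligodendrocyte lineage, measured 309.8 in brain, 3.21 in heart, 3.67 in kidney, 0.33 in liver, 0.4 in lung, 0.62 in muscle and 7.33 in spleen. BCAS1, a protein of myelinating oligodendrocytes, was 203 in brain and between 7.29 in lung and 61 in kidney. The myelin structural genes did not stand out on the probe sets that represent them. MBP, the basic protein of myelin, was 133 in brain and between 97.8 in liver and 194 in muscle on 1 probe set, and on its dimmer probe set it was 177 in brain and between 17.3 in kidney and 40.5 in muscle. CNP was highest in heart at 502, MOBP in heart at 261 and MOG in liver at 269.8. SEPTIN4, a septin of myelin and other cells, was 337 in brain and 199 in kidney.

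Other cell types of the brain had few genes on the array. None of 9 microglia and macrophage genes, 7 endothelial genes or 5 choroid plexus and ependyma genes was 2-fold above every other tissue, and with lists this short that count cannot be told from the 4.42% of all genes. Their median differences were -0.15, -0.12 and -0.43, and all 3 became positive with the values as deposited (0.0058, 0.17 and 0.35). The median of the microglia genes also turned to 0.0059 without lung and 0.0061 without spleen, that of the choroid plexus genes to 0.096 without spleen, and that of the endothelial genes became -0.20 without muscle. Of the microglia and macrophage genes 4 lay above the median of the other tissues and 5 below it. ITGAM, an integrin chain of myeloid cells, was 172 in brain and between 53.3 in kidney and 161 in muscle, and LAPTM5, a lysosomal protein of blood cells, was 145 in brain and between 20.1 in muscle and 212 in liver. AIF1, a macrophage protein, was 5.05 in brain, 613 in lung and 1015 in spleen. TTR, the thyroxine carrier that the choroid plexus secretes, measured 20.6 in brain and 854 in liver. AQP1, the water channel of choroid plexus, red cells and capillaries, measured 123 in brain, 2217 in heart, 5038 in kidney, 293 in liver, 2964 in lung, 476 in muscle and 926 in spleen. FOLR1, a folate receptor, was 532 in brain and between 101 in spleen and 1843 in lung. None of these 3 genes was highest in brain.

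Regulators of neural transcription and RNA were high in brain for 13 of 30, with a median difference of 1.49. MYT1L, a zinc finger factor of neuronal identity, was 872 in brain and at most 10.7 in liver, while its other probe set had kidney highest at 219. ELAVL4, an RNA-binding protein of neurons, was 846 against at most 35.8 in liver. LHX2, a homeodomain factor of the cortex, was 634 and 421 in brain on its 2 probe sets and at most 24.6 in heart and 45.1 in liver. ZIC1, a factor of the cerebellum and dorsal midline, was 429.7 against at most 14.8 in heart. NR4A2, a nuclear receptor needed by dopamine neurons and also induced in lymphocytes, was highest in brain and second in spleen on its 3 probe sets, with 922 and 445 on the first.

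Brain-enriched metabolic isoenzymes had 3 of 20 genes high in brain (4.42% of all genes were) and a median difference of 0.45. ALDOC, the brain form of aldolase, measured 249 in brain, 22.2 in heart, 2.85 in kidney, 18.4 in liver, 21.6 in lung, 23.9 in muscle and 28.7 in spleen. PEA15, an astrocyte phosphoprotein that acts on growth signals and glucose uptake, was 1788 in brain and at most 277 in lung. On its second probe set PEA15 was 325 in brain and 225 in heart, a difference of 0.42, under the 2-fold limit. PTGDS, the prostaglandin D synthase of meninges and glia, was 1088 against 392 in spleen. CYP46A1, the enzyme that turns over brain cholesterol, was highest in muscle at 346, with 207 in brain. ACOT7, an acyl-CoA thioesterase, was lowest in brain at 18.4, with up to 277 in lung. ENO2, neuron-specific enolase, was not analysed here.

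Markers of the cells of other organs were counted in the same way. None of 20 hepatocyte, 39 sarcomere or 4 erythroid genes was 2-fold above every other tissue in brain, nor was any of 18 kidney and lung epithelium genes by its representative probe set. Over all genes the share was 4.42%. The organs these hepatocyte, sarcomere and epithelial genes mark are among the tissues brain had to exceed. Those counts could therefore hardly differ from none, and 4 erythroid genes are too few to tell from the share of all genes. The hepatocyte genes summed to 1010 in brain, between 791 in spleen and 17570 in liver. The sarcomere genes summed to 1833 in brain, between 1302 in kidney and 29408 in heart. The epithelial genes summed to 2503 in brain, between 2289 in muscle and 7711 in lung. The erythroid genes summed to 848 in brain, between 308 in lung and 965 in kidney, and all 4 lay above the median of the other tissues, with a median difference of 0.43 that became 0.23 without liver, without lung or without spleen. Genes picked after their values were seen were near 0 in brain, with the surfactant protein gene SFTPC at 1.13 against 3989 in lung, the cardiac troponin gene TNNI3 at 5.71 against 2773 in heart, the prothrombin gene F2 at 4.72 against 1998 in liver and the fast troponin gene TNNC2 at 2.82 against 2157 in muscle. Other members of the same lists were not, and TF, the iron carrier transferrin, was 194 in brain and between 14.8 in heart and 1953 in liver on its brighter probe set. RYR2, the cardiac calcium release channel that neurons also use, was 396 in brain and 1392 in heart, and at most 2.53 in the other tissues. MYL4, an atrial and embryonic myosin light chain, was 74.7 in brain and between 86.3 in liver and 866 in heart. In the epithelial list KCNJ1, a potassium channel of the renal tubule, was 298 in brain and between 37.3 in kidney and 139 in heart, and LRP2, an endocytic receptor, was 287 in brain and 264 in heart. The order of brain and heart for LRP2 turned when the arrays were scaled to a common median.

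At the 2-fold limit against the median of the other tissues, fewer genes were low in brain (201) than high in it (608). The lists of connective tissue, smooth muscle, immune and ribosomal genes held several of the low ones. Without a limit of size, 1056 genes (16.6%) were lowest in brain and 991 (15.6%) highest in brain. Of 28 fibroblast and matrix genes, 7 were 2-fold below the median of the other tissues (3.16% of all genes were) and 10 were lowest in brain (16.6% of all genes were), with a median difference of -0.31 that became -0.21 without lung and -0.02 with the values as deposited. COL3A1, a fibrillar collagen chain, was lowest in brain on all 4 of its probe sets and measured 318 in brain, 1021 in heart, 799 in kidney, 833 in liver, 2035 in lung, 1054 in muscle and 1575 in spleen on the brightest. MGP, an inhibitor of calcification in vessels and cartilage, was 21.4 in brain and between 41.3 in liver and 375 in heart. DCN, the collagen-binding proteoglycan decorin, was 155 in brain and between 273 in spleen and 1219 in lung. IGFBP7, a protein of vessel walls, was 68.2 in brain and between 126 in muscle and 1329 in kidney on its brightest probe set. On its second it was 110 in brain, inside a range of 44.7 in liver to 225 in muscle, and on its dimmest brain was lowest. COL5A1, another fibrillar collagen chain, disagreed between probe sets, being lowest in brain at 32.1 on 1 and highest in brain at 250.2 on another.

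Smooth muscle genes had a median difference of -1.01. Of 10, 5 were at least 2-fold below the median of the other tissues (3.16% of all genes were) and 7 were lowest in brain (16.6%). They summed to 526 in brain and to between 1568 in liver and 6123 in lung. MYLK, the kinase that starts smooth muscle contraction, measured 25.6 in brain, 112 in heart, 576 in kidney, 332 in liver, 953 in lung, 111 in muscle and 769 in spleen. MYH11, the smooth muscle myosin heavy chain, was 4.2 and 2.98 in brain on its 2 probe sets and reached 1003 in lung on the brighter. ACTA2, the smooth muscle actin gene, was 119 in brain and between 199 in liver and 1812 in lung. CALD1, the actin-binding caldesmon gene, was 130.3 and between 189 in muscle and 839 in lung. TPM2, a tropomyosin, was 1.21 in brain, against between 6.25 in liver and 1167 in muscle, on its brighter probe set. On its dimmer probe set TPM2 was 4.85 in brain, with lower values in kidney, liver, lung and spleen.

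Among 19 leukocyte and MHC genes, 5 were 2-fold below the median (3.16% of all genes were) and 2 were 2-fold below every other tissue (0.22%). Brain was lowest for 9 of the 19 (16.6% of all genes), and the median difference was -0.23. Of the 5, 4 are class I genes, and the fifth, B2M, encodes the light chain they share. The human probe sets named HLA-B, HLA-C, HLA-F and HLA-G may each read several of the closely related bovine class I genes, so the symbols are uncertain. The brightest HLA-C probe set measured 2.02 in brain, 148 in heart, 201 in kidney, 342 in liver, 1382 in lung, 162 in muscle and 4762 in spleen. HLA-B, on its brightest probe set, was 1.47 in brain and between 43.9 in muscle and 1798 in spleen. HLA-F and HLA-G, on their brightest probe sets, were 49.1 and 48.2 in brain, and no other tissue was below 178 in liver and 112 in muscle. Brain was lowest on every probe set of HLA-B and HLA-F, but not on all of HLA-C and HLA-G. The dimmest HLA-C probe set was 79.3 in brain and 52.1 in kidney. HLA-G was 128 in brain and 118 in muscle on its second probe set. On its dimmest it was 150 in brain and 56.7 in lung. HLA-DMA, a class II loading factor, was the exception and was highest in brain, at 196 against at most 63.9 in spleen.

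Ribosomal protein genes were lowest in brain for 29 of 48 (16.6% of all genes were), and 14 were 2-fold below the median (3.16%). None of the 48 genes was 2-fold below every other tissue (0.22%). Their median difference was -0.77, and with the values as deposited it was -0.37 with 16 genes lowest in brain. They summed to 19552 in brain and to between 23163 in muscle and 51026 in spleen. RPL8 was 31.4 in brain and between 47.4 in muscle and 826 in spleen. RPL18 was 59.5 and between 152 in muscle and 578 in lung on the brighter of its 2 probe sets. On the dimmer RPL18 was 150 in brain, with 142 in spleen and 88.9 in lung, so brain was not lowest. RPLP1, a protein of the ribosomal stalk, measured 289 in brain and between 444 in kidney and 2076 in lung. RPS27 measured 129 in brain and between 154 in muscle and 607 in heart. RPL29 measured 122 in brain and between 199.8 in kidney and 1018 in lung on its brighter probe set. On its dimmer probe set RPL29 was lowest in kidney at 41, with 51.3 in brain. Ribosomal protein genes have many pseudogene copies, which these probe sets may not separate. The 30 mitochondrial respiration genes had a median difference of -0.28, which became -0.045 without heart, -0.047 without kidney, -0.050 without muscle and 0.18 with the values as deposited. Of the 30, 4 were lowest in brain (16.6% of all genes were), so this count did not set the list apart.

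The genes furthest below every other tissue were named by the size of the difference. ACAA2, a thiolase of mitochondrial fatty acid oxidation, measured 2.07 in brain, 595 in heart, 1023 in kidney, 972 in liver, 154 in lung, 252 in muscle and 185 in spleen. Its second probe set was lowest in liver at 64.5, with 129.6 in brain. BRCA1, a DNA repair gene, was 8.06 in brain and between 171 in kidney and 241 in spleen. TRIB1, a pseudokinase, was 26.9 and between 193 in lung and 641 in spleen. YBX1, a cold shock protein that binds mRNA, was lowest in brain on both probe sets, at 128 against no less than 376 in liver and at 28.1 against no less than 178 in kidney. DHRS3, a retinal reductase, was 111 in brain and at least 365 in muscle, and PNP, the purine nucleoside phosphorylase, was 223 and at least 628 in muscle. The differences of these 6 genes to the lowest other tissue ran from 1.17 for YBX1 to 1.63 for ACAA2. RNF41, a ubiquitin ligase, H2AC14, a histone H2A gene with near-identical copies, DGCR2, a putative adhesion receptor, and ZBTB40, a zinc finger gene, were lower than the lowest other tissue by 1.23, 1.18, 1.18 and 1.07. Brain was not lowest on the second probe set of DGCR2, with 3.03 in brain and between 0.635 in kidney and 303 in liver. Nor was it on that of RNF41, which did not pass the filter, with 30.8 in brain and between 1.46 in liver and 108 in lung.

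Where a gene had several probe sets, they often disagreed on brain. At least 1 probe set was 2-fold above every other tissue for 346 genes (5.44% of 6359). Of these, 234 had no further probe set past the filter and could not be checked, and 112 had 1 or more. All further probe sets passed the same limit for 23 of the 112, some did for 5 and none did for 84. Of the 145 further probe sets, 29 (20%) were 2-fold higher in brain than in every other tissue, 57 (39.3%) were highest in brain and 49 (33.8%) were at or below the median of the other tissues. Among all 3284 probe sets of the 1420 genes with several, those shares were 4.29%, 17.4% and 52.6%. Of the genes with a probe set 4-fold higher, 44 had others, and 17 of their 51 further probe sets (33.3%) passed the 2-fold limit.

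In the neural lists 21 of 69 further probe sets (30.4%) passed the limit, over 55 genes, and outside them 8 of 76 (10.5%), over 57 genes, a difference that was not tested. PPP3CA, the catalytic subunit of the calcium-dependent phosphatase calcineurin, passed on all 3 of its probe sets. They measured 1382, 1403 and 1208 in brain, and muscle was second on each with 499, 495 and 522. PTGDS passed on 2 of 3 with differences of 1.32 and 1.21, and its last was 0.80. MEF2C, a transcription factor of neurons, muscle and lymphocytes, passed on 2 of 3, with 612 and 796 in brain and muscle second on both. ARPP19, an inhibitor of protein phosphatase 2A, passed on 2 of 3 and TRIM2, a ubiquitin ligase of neurons, on 2 of 4. CDC42, a small GTPase of the actin skeleton, split evenly, with differences of 1.69 and 2.37 on its 2 dimmer probe sets and -1.92 and -1.61 on the brighter ones. RTN1, a reticulon of the neuronal endoplasmic reticulum, passed on both, with 677 and 625 in brain and at most 34.4 in lung and 11.1 in heart.

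Some genes had wide gaps between their probe sets. ARF3, a GTPase of the Golgi, was 1453 in brain against at most 242 in liver on 1 probe set, and on the other it was 3.87 in brain and 408 in liver. EGR4, a transcription factor induced by activity in neurons, was 528 in brain and at most 2.54 in spleen, while its other probe set had heart highest at 312. SRSF7, a splicing factor made in all tissues, was 1284 in brain and at most 43.7 in muscle on 1 of 3 probe sets, and kidney was highest on the other 2. MAST2, a microtubule-associated kinase, was 559 in brain and at most 17.3 in liver on 1 of 3, with 237 inside the range of the other tissues on the brightest, where the deposited values put brain highest. Which of the probe sets follows the bovine transcript was not tested.

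**Figure D4:**
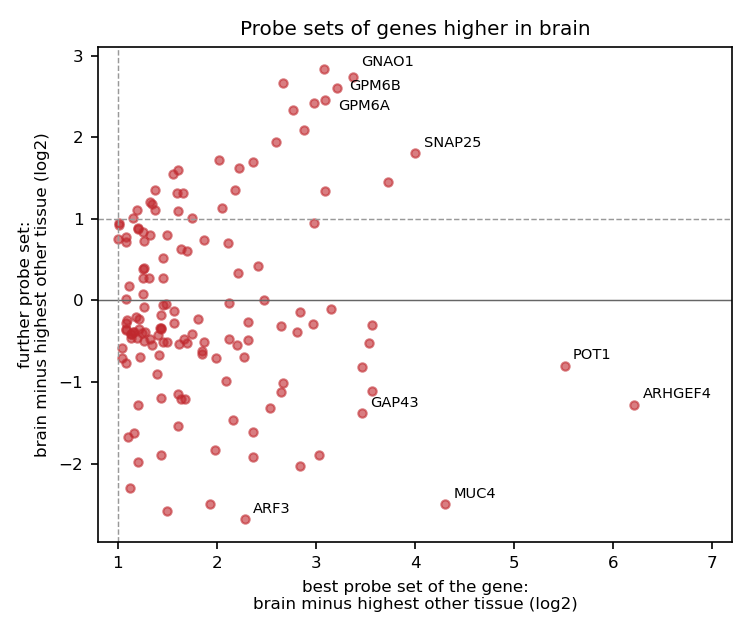
Each point is a further probe set of a gene that has a probe set at least 2-fold higher in brain than in every other tissue; the horizontal axis is the difference between brain and the highest other tissue on the gene's best probe set and the vertical axis the same difference on the further one, both on the log2(intensity + offset) scale, with dashed lines at 2-fold. Of 145 further probe sets 29 lie above the upper dashed line, among them those of SNAP25, GNAO1, GPM6A and GPM6B, whereas ARHGEF4, POT1 and MUC4 lie below 0.

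The largest differences were counted apart. At least 16-fold above every other tissue were 12 probe sets (0.127%), a limit chosen after the values were seen, of which 11 had 1 symbol. Of these 11 genes only SNAP25 (9.09%) was in a neural list, against 40.6% at the 2-fold limit and 5.44% of all genes. ISL1, a LIM homeodomain factor of motor neurons, striatum and pancreatic islets, measured 8428 in brain, 2.54 in heart, 0.28 in kidney, 28.6 in liver, 14.1 in lung, 15.9 in muscle and 10.2 in spleen. RPAP1, a factor that associates with RNA polymerase II, was 6224 in brain and at most 5.12 in kidney. ARHGEF4, a guanine nucleotide exchange factor, was 5534 against at most 4.66 in lung, ARMCX6, an armadillo repeat gene of the X chromosome, 5038 against at most 9.23 in liver, and SCYL2, a pseudokinase of clathrin vesicles, 4762 against at most 20.3 in liver. POT1, a protein that protects chromosome ends, was 3989 in brain and at most 18.2 in heart, DRC4, a dynein regulator of motile cilia, 3228 and at most 60.2 in muscle, and MUC4, a membrane mucin of epithelia, 2964 and at most 83 in liver. LAMP5, a lysosome-associated membrane protein of neurons, was 2035 against at most 44 in heart, and SELENOF, a selenoprotein of the endoplasmic reticulum, 1829 against at most 35.1 in heart.

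Of these 11 genes 4 had a further probe set, and SNAP25 alone was 2-fold higher in brain on it. On the further probe set ARHGEF4 was 82 in brain and up to 299 in muscle, POT1 was 109 and up to 241 in heart, and MUC4 was 2.61 and up to 344 in liver. The deposited intensity reached 10000 or more on the brain array for 5 probe sets, and all 5 belonged to this group. Of the 10 probe sets with the highest deposited intensity on the array, 8 were 16-fold above every other tissue in brain, 10 in liver, 6 in lung, 3 in kidney, 2 in muscle and none in heart or spleen. Liver had 33 probe sets 16-fold above every other tissue, lung 11, muscle 6, kidney 3, heart 2 and spleen none. Whether these very bright values are levels of the named transcripts was not tested.

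**Figure D5:**
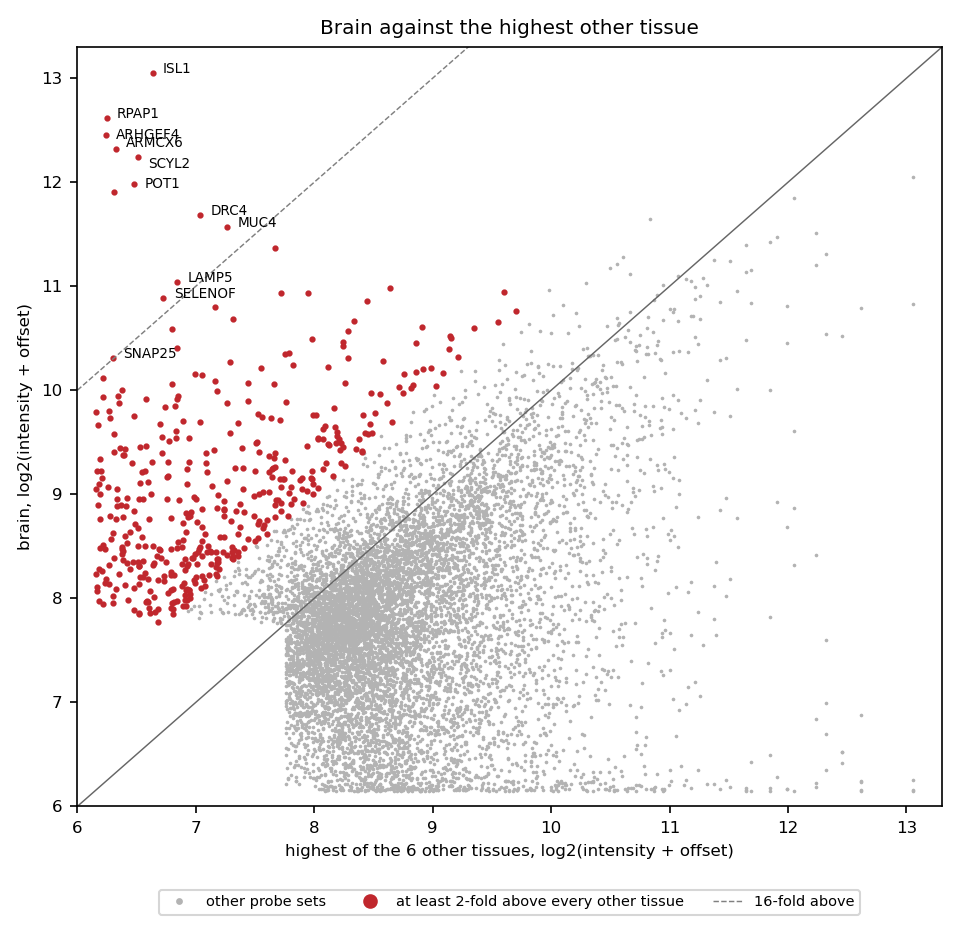
Level in brain against the highest level in the 6 other tissues for 9469 probe sets, both as log2(intensity + offset); red points are the 420 probe sets at least 2-fold above every other tissue, the solid line marks equal levels and the dashed line a 16-fold difference. The 12 probe sets above the dashed line, labelled where they have 1 symbol, include ISL1 at 8428 and SNAP25 at 1196.

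The 20 genes furthest above every other tissue held 9 more below the 16-fold limit, of which 3 (KIF5C, NCAN and DIRAS2) were in a neural list. ASTN1, an astrotactin of migrating neurons, was 1043 in brain and at most 3.63 in muscle. ARPP21, a phosphoprotein of the striatum and cortex, was 955 against at most 12.5 in muscle. CSDC2, a cold shock protein that binds RNA, was 823 in brain and at most 6.25 in liver. LRRC49, a leucine-rich repeat gene, was 1471 against at most 40.7 in spleen. HCG18, a long non-coding RNA gene, was 813 in brain and listed at 0 in liver, lung, muscle and spleen, with 0.635 in kidney as the highest other value. ERC2 was described with the synaptic vesicle genes.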

How the data were processed

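The deposited values are linear intensities of the 22283 probe sets of a human expression array, of which 12064 were blank throughout. The software, background correction and scaling by which the authors made these intensities, and the genome build, were not given in the sources used here, so coordinates are left out. The arrays carry no counts, and their number, 1 per tissue, limits the precision.

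The 10186 non-control probe sets with values were quantile normalised over all 10 arrays in Python 3.11.15 with pandas 2.3.3 and numpy 2.4.6, which removes differences in total signal between tissues. The log2 of these deposited and then normalised intensities was taken after adding 70.85, which is the median of the 10 arrays' 25th percentiles. The filter kept probe sets that exceeded the array median in 1 or more of the 7 adult tissues. Brain was set against the highest, the lowest and the median of the 6 other tissues, with limits of 2-fold, 4-fold and, added after the values were seen, 16-fold. The counting was checked on made-up arrays with planted differences. Figures were drawn with matplotlib 3.10.9.

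Symbols came from the platform annotation, and of the 10186 probe sets 8847 had 1 symbol, 479 several and 860 none. Of 6359 genes 5970 symbols (93.9%) are also in the bovine RefSeq table, assembly ARS-UCD2.0. Probe sets with several symbols named no gene. The tissues, the 24 gene lists and the rule for named genes were chosen with earlier results of these data known. That rule took the 20 genes furthest above and the 12 furthest below every other tissue, up to 5 genes of each list past 2-fold, genes with 3 or more probe sets of which at least 2 passed, up to 8 with the widest gap between probe sets, and 20 marker genes whatever their values, some of which are not reported here. VAMP1, VAMP2, NEFM, NEFH, KIF5B, SCN1A, GRIN2A, APOE, CNP, MOBP, MOG, AIF1, ITGAM, LAPTM5, TF, B2M, SFTPC, TNNI3, F2, TNNC2 and RTN1 were added after their values were seen.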

Additional observations from a re-analysis of the deposited data

How the results depend on the processing

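No paired analysis was possible because each tissue has 1 array and the replicate numbers of the embryo arrays match none of them. With 1 array per tissue, every count rests on that array, and dim probe sets near the offset set the precision.

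The counts depended most on the offset. With an offset smaller by a factor of 4, 236 probe sets were 4-fold above every other tissue (144 as reported), 91 were 2-fold below every other tissue (26), 772 were 2-fold below the median (326), and 1.63% of probe sets stood apart per embryo array (0.929% on average as reported). With an offset 4 times larger these were 23, 1, 44 and 0.204%, with 169 probe sets 2-fold above every other tissue (420), 344 above the median (921) and 60 neural list genes high in brain (114). With the values as deposited, where the median of all genes moved from -0.03 to 0.28, 14 probe sets were below every other tissue, 160 below the median and 1.73% stood apart per embryo array. With 1 probe set per gene the counts were 14 below every other tissue, 201 below the median and 608 above it.

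Leaving out each other tissue in turn gave 437 to 462 probe sets 2-fold above every other tissue and 150 to 163 by 4-fold. It gave 29 to 48 below every other tissue, with 40 without kidney and 48 without muscle. The number above the median was 851 to 1038, the number below it 308 to 468, the neural list genes 117 to 126, and 19.6% to 23.5% of further probe sets passed. Counting a gene by any of its probe sets, an alternative chosen after the data were seen, gave 140 neural list genes.

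Among the named genes, RYR2, at -1.65 against the highest other tissue, ranged from -1.66 to 2.69 with each tissue left out in turn, and the sign turned without heart. CYP46A1, at -0.58, turned to 1.32 without muscle. The gene's probe set with the next highest mean turned the sign of the difference to the highest other tissue for 15 of the named genes that had such a probe set. Of these, 13 differed by 2-fold or more as reported, and they turned to -2.68 for ARF3, -1.28 for ARHGEF4, -0.55 for ARPP19, -1.90 for EGR4, 3.46 for GAP43, -1.98 for MAPT, -2.50 for MUC4, -0.52 for MYT1L, -0.22 for NTRK2, -0.028 for PLCB1, -0.80 for POT1, 3.56 for SRSF7 and 1.61 for TRIM2. The other 2 differed by less as reported, and they turned from -0.38 to 1.15 for MBP and from 0.032 to -0.068 for APP. ARF3, ARHGEF4, EGR4, GAP43, MUC4, POT1 and SRSF7 were named wholly or partly by the rule that took the widest gaps between probe sets. Their disagreement was thus selected for, and the count of 15 does not measure how often the probe sets of a gene disagree. Nor does it cover whether a gene lowest in brain stayed lowest on its next probe set. The cause of the turned signs was not tested.

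The list medians moved too. Of 24, an offset 4 times larger moved 23 by over 1.5 times, the values as deposited 16, a filter at the 75th percentile 8 and a smaller offset 6. As reported the highest was that of the neuropeptide list, but both offsets, no filter and leaving out lung put the cytoskeleton list highest (2.30, 0.81, 1.63 and 1.78), the 75th percentile filter the synaptic vesicle list (2.20), and leaving out muscle the neural transcription list (1.86). The lowest, that of smooth muscle genes, passed to the ribosomal protein list (-0.50) with the larger offset.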

Other observations

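Some genes were high in brain and in 1 other organ, a pattern looked for after the values were seen. The genes named were picked from the 6 with the widest margins for each organ. With heart, KCNJ4, an inward rectifier potassium channel, was 433 in brain, 900.2 in heart and at most 53.4 elsewhere, and the calcium release channel RYR2 described above had the widest margin of those with heart. B3GALT2, a galactosyltransferase, was 343 in brain, 836 in heart and at most 49.0 elsewhere, and SOBP, a nuclear zinc finger protein, was 1133 in brain and 880 in heart, with 213 in muscle. RCAN2, an inhibitor of calcineurin, was 374 in brain, 233 in heart and at most 26.7 in the other tissues.

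With kidney, L1CAM, described above, had the widest margin. TRHDE, the enzyme that degrades thyrotropin-releasing hormone, was 809 in brain, 294 in kidney and at most 31.3 elsewhere. SERPINI1, a protease inhibitor of neurons, was 561 in brain and 229 in kidney, against at most 14.2. EMX2, a homeodomain factor needed by the cortex and the urogenital tract, was 201 in brain and 542 in kidney, against at most 20.9. SLC4A4, a sodium bicarbonate cotransporter of astrocytes and of the proximal tubule, was 479 in brain and 830.3 in kidney. On its probe set with the highest mean, SLC4A4 was highest in brain, with a difference of 0.51 to the highest other tissue. PKP4, a plakophilin, was 785 and 846, with 272.2 in lung. On another probe set PKP4 was higher in brain than in every other tissue, kidney included, by 3.15.

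With muscle, the calcineurin subunit gene PPP3CB was 727 in brain and 692 in muscle, against at most 198 elsewhere, and ADCY2, an adenylyl cyclase, was 213 and 508, against at most 18.1. With spleen, BCL11B, a factor of cortical neurons and T cells, was 291 in brain and 369 in spleen, with 101 in lung, and PTN, a growth factor that binds heparin, was 453 and 615. With liver, CUX2, a factor of upper cortical layers, was 362 in brain and 178 in liver, against at most 13.5. With lung, CADM3, an adhesion molecule, was 697 in brain and 280.03 in lung, against at most 65.5, on 1 probe set. On its further probe sets brain was not highest, with differences of -0.41, -0.46 and -0.41 to the highest other tissue.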
